A study of Mus musculus with 16 samples.

Results

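Genes of the tibialis anterior, a fast muscle, were compared between pair-fed mice, which ate a reduced ration without GDF15, and vehicle-treated mice. The comparison held 10 of the 16 libraries of the series: vehicle mice 1 to 5 and pair-fed mice 2 to 6, with 1 library per mouse and the group taken from its label. The remaining 6 libraries came from mice given recombinant GDF15, a hormone that lowers appetite through a receptor in the hindbrain. All mice were wild-type (WT) males, of the background C57BL/6 by their labels and C57BL/6J by the study's methods, and from 8 weeks of age they were kept at about 29 °C on the NASH diet, which is high in fat and fructose and holds some cholesterol, under which they become obese. They were housed singly during treatment. GDF15 was injected under the skin once a day in the morning, and the daily ration of pair-fed mice was set by the measured intake of a GDF15 group, with a lag of 1 day. By the study's methods mice were otherwise fed freely and were killed in a fed state. The dose of the GDF15 group that set the ration, the age at collection and the hour of collection are not given for these mice in the sources used here, nor is whether pair-fed mice were injected. The hour at which the ration was given is also missing. The amount eaten, the hour of eating and the time since the last meal therefore cannot be told apart. Mice of different groups that bear the same number are different animals.

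Skeletal muscle changes its fuel when food is short: insulin falls, glucocorticoids from the adrenal cortex and fatty acids from adipose tissue rise, and forkhead transcription factors can switch on genes for autophagy and for ubiquitin ligases that break down muscle protein. Muscle also has its own circadian clock, in which BMAL1 (encoded by Arntl) with CLOCK or NPAS2 drives the genes of their own repressors, the PER and CRY proteins, and in which the hour of feeding is a known time cue. The tibialis anterior is built largely of fast fibres that express myosin heavy chain IIb (Myh4), with IIx (Myh1) and IIa (Myh2) fibres in smaller number and very few slow fibres (Myh7).

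Values are normalised read counts, recovered from the deposited log2-scale table, for 11841 genes with a mean of at least 10 over the 16 libraries. The approximate depth was 11880302 to 15051870 reads in vehicle and 11778638 to 14762777 in pair-fed libraries. Across genes, libraries within a group (20 pairs) correlated with Pearson's r of 0.978 to 0.986. The 5 defining genes of muscle fibres, Acta1, Ckm, Mb, Ttn and Myh4, summed to 1462721 to 1681769 in vehicle and 1623801 to 1899065 in pair-fed mice, so that the labelled tissue was present in each library. The summed markers of most other cell types overlapped between the groups: 75.4 to 335 in vehicle and 176 to 497 in pair-fed mice for adipocytes, 259.5 to 3146 in vehicle and 79.9 to 3743 in pair-fed mice for red blood cells and 137 to 292 in vehicle and 109.7 to 335 in pair-fed mice for macrophages, and the only liver marker in the table, Alb, stayed at 2.94 or below. The sums for endothelial cells (3526 to 4262 in vehicle and 3255 to 3842 in pair-fed mice) also overlapped, as did those for fibro-adipogenic progenitors (1472 to 2125 in vehicle and 1266 to 2242 in pair-fed mice). Sums were 682 to 1032 in vehicle and 431 to 1254 in pair-fed mice for Schwann cells, with 0 of 6 markers passing and all 6 below 0, 7834 to 9021 in vehicle and 7369.7 to 7999 in pair-fed mice for smooth muscle and pericytes, 446 to 486 in vehicle and 452 to 488 in pair-fed mice for satellite cells, 9.76 to 61.4 in vehicle and 3.58 to 45.4 in pair-fed mice for neutrophils and 0.00 to 13.3 in vehicle and 0.50 to 8.03 in pair-fed mice for lymphocytes. Tendon markers are given beside the genes they moved with. In whole muscle, fewer cells of a type and less RNA per cell cannot be told apart.

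Pair-fed and vehicle mice differed in 97 of the 11841 genes (0.819%) at an adjusted p under 0.1 (limma, Benjamini-Hochberg) and a change of over 0.6 on the log2 scale in either direction. Of these, 39 genes (0.329% of all tested) were higher and 58 (0.49%) were lower in pair-fed mice, and such genes are referred to as called. At the adjusted p alone, 754 genes (6.37%) differed, 379 higher (3.2%) and 375 lower (3.17%), so that 657 of them changed by at most 0.6 on the log2 scale, and the median size of the change among the 754 was 0.30. Over all tested genes the median log2 fold change was 0.0013, and 5948 of 11841 lay above 0. In 52 of the 97 called genes the 2 groups did not overlap, 22 higher and 30 lower, where values that do not overlap were found in 644 of all tested genes (5.44%). Among called genes, the largest rises were those of Chad, Ccn5, Angptl7, Ciart and Per2, and the largest falls those of Npas2, Syt12, Cnn1, Hmcn1 and Acot4. The number of called genes ranged from 60 to 157 when 1 mouse was left out: it was 63, 60 and 60 without pair-fed mouse 2, 5 or 6, and 157 without pair-fed mouse 3. Of the 97, 31 stayed called in all 10 fits that left out 1 mouse. In 3 further fits, chosen after the data were seen, the level of Myh2 or the summed level of 5 tendon markers was added as a covariate, or pair-fed mice 2 and 5 were both left out; these gave 33, 32 and 26 called genes, of which 26, 25 and 20 were among the 97. Aqp4, Arntl, Auts2, Ciart, Dbp, Efr3b, Glul, Hmcn1, Hspa4l, Mid1ip1, Mthfd1l, Per1, Per2, Per3, Pnpla3, Rassf9, Tob2 and Usp2 were called in all 3 of them, and every other called gene missed a threshold in at least 1. Counts of gene lists in these 3 added fits are given in that order. List counts at the adjusted p alone stand beside the 3.2% and 3.17% of all tested genes that rose and fell.

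**Figure D1:**
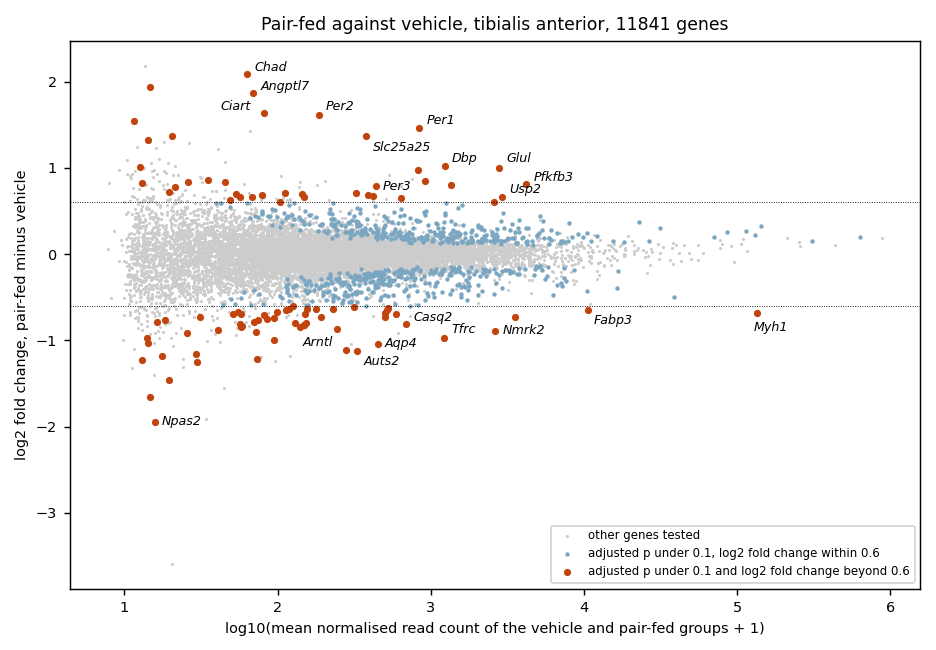
Log2 fold change of pair-fed against vehicle mice (vertical axis, fitted on log2(count + 1)) against the log10 of the mean normalised read count plus 1 (horizontal axis) for the 11841 tested genes, with 5 libraries in each group. The 97 called genes (red) lie beyond 0.6 in either direction, and most genes with an adjusted p under 0.1 (blue) lie within 0.6.

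The circadian clock held the genes with the smallest adjusted p. Of 19 clock genes tested, 10 rose and 5 fell at an adjusted p under 0.1, and 6 of the higher and 2 of the lower ones were called, where 3.2% and 3.17% of all genes rose and fell. The median log2 fold change of the list was 0.22, beside 0.0013 over all tested genes. In the 3 added fits 8, 9 and 8 clock genes rose and 2, 3 and 2 fell. The hour at which the muscles were taken is not given and each mouse was sampled once, so that a change in level and a shift in the timing of the rhythm cannot be told apart in any of these genes. Nor can the amount eaten be told apart from the hour of eating. Several repressors of the clock rose. Per1 (chromosome 11, 69095217 to 69109960) had 482, 433, 455, 505 and 348 normalised read counts in vehicle mice 1 to 5, and 1170.1, 1306, 973, 1475 and 1219.9 in pair-fed mice 2 to 6, a rise in which the lowest pair-fed mouse stood well above the highest vehicle mouse. For Per1 the log2 fold change was 1.46 (standard error 0.14, limma adjusted p = 2.01e-05). Per2 had 88.9, 67.1, 108, 95.5 and 95.9 in vehicle mice and 256, 282, 258, 322 and 271 in pair-fed mice. For Per2 the log2 fold change was 1.61 (standard error 0.16, limma adjusted p = 2.36e-05). Per3 had 322, 285, 329.6, 361 and 304 in vehicle mice and 558, 517, 521, 562 and 602 in pair-fed mice. For Per3 the log2 fold change was 0.79 (standard error 0.07, limma adjusted p = 1.38e-05). The values of these 3 period genes did not overlap between the groups. Cry2, which encodes a cryptochrome, a partner of the PER proteins, had 518, 456, 511, 533 and 459.9 in vehicle mice and 804, 734, 655, 830.3 and 889 in pair-fed mice. For Cry2 the log2 fold change was 0.65 (standard error 0.09, limma adjusted p = 0.000586), again without overlap. Ciart, whose product represses BMAL1 and CLOCK, had 58.8, 32.6, 22.3, 58.2 and 30.4 in vehicle mice and 127, 114, 103, 126 and 129 in pair-fed mice. For Ciart the log2 fold change was 1.64 (standard error 0.27, limma adjusted p = 0.00336), and each pair-fed mouse had more than each vehicle mouse.

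Outputs of the clock rose as well, and its activators fell. Dbp, a PAR bZIP factor whose gene is driven directly by BMAL1 and CLOCK, had 735, 615, 845, 995 and 882 in vehicle mice and 1849.6, 1629, 1358, 1656 and 1737 in pair-fed mice. For Dbp the log2 fold change was 1.03 (standard error 0.14, limma adjusted p = 0.00107), with no overlap. The other 2 PAR bZIP genes rose by less: Tef had 3807 to 3991 in vehicle and 4521 to 5015 in pair-fed mice (log2 fold change 0.30, limma adjusted p = 0.00298) and Hlf 161 to 197 in vehicle and 223 to 353 in pair-fed mice (log2 fold change 0.59, limma adjusted p = 0.0277). Arntl (chromosome 7, 113207465 to 113314126), which encodes BMAL1, had 452, 396, 329.5, 329.8 and 414 in vehicle mice and 183, 174, 191, 155 and 181 in pair-fed mice. For Arntl the log2 fold change was -1.11 (standard error 0.10, limma adjusted p = 1.88e-05), so that the highest pair-fed mouse lay below the lowest vehicle mouse. Npas2, which encodes an alternative partner of BMAL1, had 8.49, 21.8, 33.6, 20.6 and 34.2 in vehicle mice and 5.14, 13.6, 4.10, 2.67 and 3.03 in pair-fed mice. For Npas2 the log2 fold change was -1.94 (standard error 0.46, limma adjusted p = 0.0279); counts were low and overlapped through vehicle mouse 1 and pair-fed mouse 3. Clock itself had 314 to 416 in vehicle and 211 to 268 in pair-fed mice (log2 fold change -0.55, limma adjusted p = 0.00174), with no overlap. Nr1d1, which encodes the repressor REV-ERBα, fell (log2 fold change -0.39, limma adjusted p = 0.0297) while its paralog Nr1d2 rose (log2 fold change 0.20, limma adjusted p = 0.0103). The rise of Bhlhe41, a repressor of the DEC family, and the fall of Nfil3, which competes with the PAR bZIP factors for their sites, had log2 fold changes of 0.45 and -0.48 (limma adjusted p = 0.0178 and 0.091). Nfil3 missed the threshold without vehicle mice 1, 2, 3 or 5 or pair-fed mice 2, 4, 5 or 6 (log2 fold changes -0.50 to -0.39). Rora, Cry1 and Bhlhe40 did not pass the test. In each fit that left out 1 mouse, 10 clock genes were higher and 4 or 5 lower. Exons of Arntl, Cry2, Dbp and Nr1d1 overlap an annotated gene on the opposite strand, which is Thra for Nr1d1 and Sphk2 for Dbp, and whether the quantification used strand is not given in the sources used here.

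**Figure D2:**
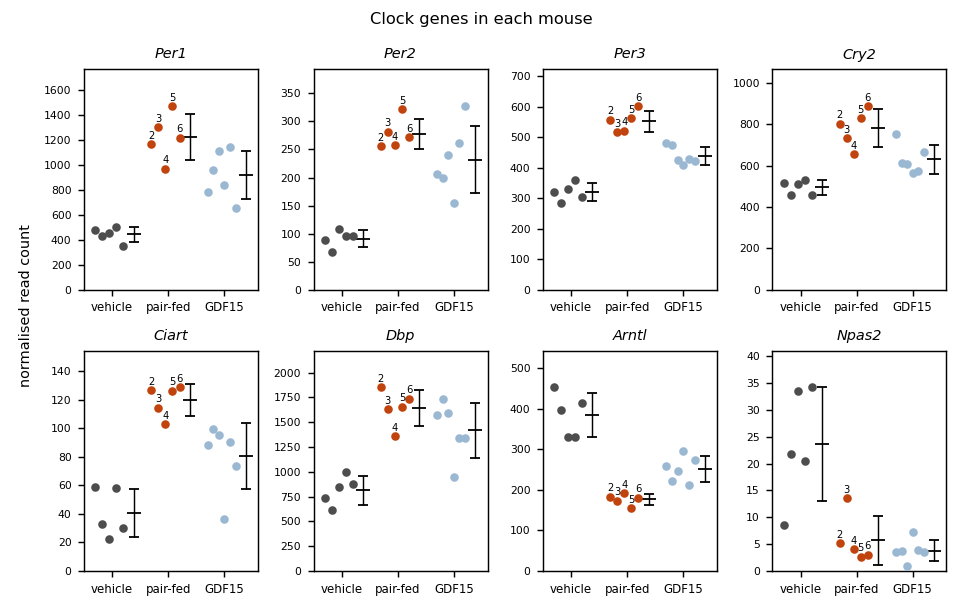
Normalised read counts (vertical axes, from 0) of 8 called clock genes in each vehicle (grey), pair-fed (red, with mouse numbers) and GDF15-treated mouse (blue); bars give the mean and SD (n = 5, 5 and 6). In Per1, Per2, Per3, Cry2, Ciart, Dbp and Arntl each pair-fed mouse lies on the same side of all vehicle mice, and in Npas2 the groups overlap.

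Promoters of these genes are shown because they hold letters through which clock factors, or factors that answer to cAMP, are known to act. RefSeq promoter windows of GRCm38.p6, from 250 bases before to 50 after an annotated start, matched 9471 of the 11841 tested genes by symbol, 31 of the 39 called higher genes and 43 of the 58 called lower ones. Windows were searched on both strands for the E-box CACGTG, bound by BMAL1 with CLOCK, for the D-box TTATGNAA, bound by the PAR bZIP factors and NFIL3, for TAGGTCA, bound by ROR and REV-ERB proteins, and for the cAMP response element TGACGTCA; no match shared bases with another in the stretches printed. The stretches below give the 250 bases before the start, written 5′ to 3′ on the strand of the gene, for the 6 called genes of smallest adjusted p that hold one of these motifs, with the matches in capitals. For Arntl, whose match lies just past the start, only the 30 bases around it are given.
Per3 (chr4:151044666-151044915, minus strand): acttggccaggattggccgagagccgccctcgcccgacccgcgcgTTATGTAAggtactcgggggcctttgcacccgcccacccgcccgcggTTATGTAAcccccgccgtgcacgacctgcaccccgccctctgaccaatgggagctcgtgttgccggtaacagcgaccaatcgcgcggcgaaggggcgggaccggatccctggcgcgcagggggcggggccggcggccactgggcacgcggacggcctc
Arntl (chr7:113207529-113207558, plus strand): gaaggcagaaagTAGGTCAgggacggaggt
Per1 (chr11:69098699-69098948, plus strand): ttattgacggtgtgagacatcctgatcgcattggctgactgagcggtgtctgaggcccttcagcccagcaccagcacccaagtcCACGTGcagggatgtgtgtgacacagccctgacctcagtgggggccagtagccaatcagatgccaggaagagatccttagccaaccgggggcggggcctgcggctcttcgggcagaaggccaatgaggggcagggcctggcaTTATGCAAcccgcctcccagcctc
Pnpla3 (chr15:84167566-84167815, plus strand): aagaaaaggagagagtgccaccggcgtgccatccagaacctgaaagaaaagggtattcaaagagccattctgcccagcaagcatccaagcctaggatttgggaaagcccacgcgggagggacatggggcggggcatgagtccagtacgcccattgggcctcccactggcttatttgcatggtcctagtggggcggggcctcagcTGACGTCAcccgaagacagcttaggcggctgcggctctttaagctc
Ciart (chr3:95882229-95882478, minus strand): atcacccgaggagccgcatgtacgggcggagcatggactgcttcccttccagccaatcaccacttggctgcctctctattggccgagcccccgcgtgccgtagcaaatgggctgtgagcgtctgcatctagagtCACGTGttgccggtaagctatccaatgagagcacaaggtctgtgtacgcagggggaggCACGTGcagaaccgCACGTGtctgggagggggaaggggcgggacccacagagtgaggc
Glul (chr1:153899679-153899928, plus strand): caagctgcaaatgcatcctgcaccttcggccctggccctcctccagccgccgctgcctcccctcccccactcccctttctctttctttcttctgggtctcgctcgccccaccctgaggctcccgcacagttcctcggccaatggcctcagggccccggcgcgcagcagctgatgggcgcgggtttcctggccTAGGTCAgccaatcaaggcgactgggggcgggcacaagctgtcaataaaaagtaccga

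Per3 held 2 D-boxes, 205 and 158 bases before the start, Per1 an E-box 166 bases and a D-box 24 bases before it, and Ciart 3 E-boxes, 116, 58 and 44 bases before it. The match of Arntl, TAGGTCA, began 31 bases after the start, that of Glul 58 bases before it, and the cAMP response element of Pnpla3 46 bases before it. The D-box was found in at least 1 window of 4 of the 31 called higher genes (12.9%) and of 0 of the 43 called lower genes, and in 2.39% of all tested genes and 3.38% of all 32851 windows. The genes were Per3, Per1, Zfp503 and Osgin1. The E-box was found in 4 of 31 higher (12.9%) and 7 of 43 lower genes (16.3%), against 12.1% of all tested genes and 7.15% of windows. TAGGTCA was found in 1 of 31 and 1 of 43, against 2.22% of genes and 2.61% of windows, and TGACGTCA in 1 of 31 and 3 of 43, against 3.58% and 1.79%. The letters AGAACA, which make up one side of a glucocorticoid receptor site, were found in 3 of 31 and 8 of 43, against 14.6% and 19%, and the FOXO motif GTAAACA in 1 of 31 and 2 of 43, against 3.09% and 3.65%. Searches for TGACGCAA, TTCNNNGAA, TGATGNAA and GAANNTTC found 1, 3, 1 and 0 of the 31 and 0, 3, 3 and 1 of the 43, against 1.06%, 8.16%, 2.69% and 6.95% of tested genes. A match of letters describes the window only, and several genes have more than 1 window. Per1 and Arntl each have 2 windows, of which 1 held the matches. For Per1 the start of that window lies inside the gene at the coordinates given above.

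Part of the genes that glucocorticoids induce in muscle were higher in pair-fed mice: 6 of 19 tested rose, 0 fell, and the median of the list was 0.23. Of all tested genes 3.2% rose and 3.17% fell. The 6 were Per1, Klf9, Glul, Klf15, Tsc22d3 and Cebpb, of which Per1 is also in the clock list. Whether the others vary with the hour was not tested. Glul (chromosome 1, 153899944 to 153909723), which encodes glutamine synthetase, the enzyme by which muscle releases nitrogen as glutamine, had 2137, 1672, 1805, 1817 and 1620.4 in vehicle mice and 2865, 4578, 2263, 4404 and 4679.8 in pair-fed mice. For Glul the log2 fold change was 1.00 (standard error 0.17, limma adjusted p = 0.00426). Pair-fed mice 3, 5 and 6 had more than each vehicle mouse by the widest margin, pair-fed mice 2 and 4 less, and the groups did not overlap. Klf9, which encodes a Krüppel-like factor, had 2796, 2626, 2809, 2639 and 2659 in vehicle mice and 3259.9, 3306, 3346, 3286 and 3483 in pair-fed mice. For Klf9 the log2 fold change was 0.30 (standard error 0.03, limma adjusted p = 0.000132), a small rise with little spread in either group. Klf15, a regulator of amino acid breakdown in fasted muscle, had 603, 599.7, 509.9, 546 and 540.0 in vehicle mice and 694, 875, 694, 746 and 822 in pair-fed mice. For Klf15 the log2 fold change was 0.45 (standard error 0.09, limma adjusted p = 0.0119). Tsc22d3, which encodes the glucocorticoid-induced leucine zipper GILZ, had 2028, 1728, 1725, 1790.5 and 1744 in vehicle mice and 2405, 2115, 2039, 2601 and 2235 in pair-fed mice. For Tsc22d3 the log2 fold change was 0.33 (standard error 0.07, limma adjusted p = 0.0157). In all 5 members other than Cebpb the groups did not overlap. Other members did not pass: Fkbp5, which encodes a co-chaperone of the glucocorticoid receptor, had 589, 415, 400.2, 439.9 and 303 in vehicle mice and 325, 544, 412, 341 and 322 in pair-fed mice (log2 fold change -0.14, 95% confidence interval -0.52 to 0.24, limma adjusted p = 0.729), and the metallothioneins Mt1 and Mt2 had log2 fold changes of -0.22 and 0.24 (limma adjusted p = 0.509 and 0.641). The number that rose was 6 or 7 in each fit that left out 1 mouse, and 5, 6 and 5 in the 3 added fits.

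Of the atrophy programme, several genes of autophagy rose, and the 2 best known muscle ubiquitin ligases did not pass the test. In a list of 26 autophagy and lysosome genes 5 rose (19.2%) and 0 fell, with a median of 0.10, where 3.2% of all tested genes rose. The number of the list that rose was 3 to 6 when 1 mouse was left out and 2, 3 and 2 in the 3 added fits. Gabarapl1, which encodes an ATG8 protein of the autophagosome membrane, had 691, 687, 674, 696 and 684 in vehicle mice and 856, 824, 893, 899 and 1081 in pair-fed mice. For Gabarapl1 the log2 fold change was 0.40 (standard error 0.06, limma adjusted p = 0.00298), so that vehicle mice lay within a narrow band and all pair-fed mice above it. Sqstm1, which encodes the cargo receptor p62, had 6868, 7043, 6258, 7522 and 7328 in vehicle mice and 9307, 7844, 8623, 9685 and 9509 in pair-fed mice. For Sqstm1 the log2 fold change was 0.36 (standard error 0.06, limma adjusted p = 0.00322), also without overlap. Ulk1, which encodes the kinase that starts autophagy, had 1791, 1774, 1721, 1911 and 1808 in vehicle mice and 2364, 1811, 2164, 2346 and 2619 in pair-fed mice. For Ulk1 the log2 fold change was 0.32 (standard error 0.08, limma adjusted p = 0.0355); pair-fed mouse 3 lay among the vehicle mice. Pink1 and Bnip3l, which act in the removal of mitochondria, rose by 0.16 and 0.23 on the log2 scale (limma adjusted p = 0.0545 and 0.0659). Pink1 missed the threshold without vehicle mice 1, 2 or 5 or pair-fed mice 5 or 6 (log2 fold changes 0.14 to 0.16). Bnip3l missed the threshold without vehicle mice 3, 4 or 5 or pair-fed mice 3, 5 or 6 (log2 fold changes 0.20 to 0.23).

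Fbxo32, which encodes the ligase atrogin-1, had 8539, 5845, 5142, 5412 and 6895 in vehicle mice and 5919, 5447, 6723, 6092 and 7381 in pair-fed mice (log2 fold change 0.01, 95% confidence interval -0.29 to 0.30, limma adjusted p = 0.988). Trim63, which encodes the ligase MuRF1, had 4052, 3181, 2436, 2949.6 and 3337 in vehicle mice and 3125, 3184, 3329, 3283 and 3301 in pair-fed mice (log2 fold change 0.04, interval -0.19 to 0.28, limma adjusted p = 0.885). Both groups overlapped widely in these 2 genes, and the forkhead genes Foxo1 and Foxo3 had log2 fold changes of -0.11 and 0.10 (limma adjusted p = 0.712 and 0.696). Of the 22 genes in the list of forkhead factors and atrophy ligases, Gadd45a and Nedd4 rose (log2 fold changes 0.33 and 0.17, limma adjusted p = 0.0388 and 0.0647); the number that rose was 1 to 4 when 1 mouse was left out and 0, 0 and 1 in the 3 added fits. Among 38 proteasome subunits 4 rose (Psmd4, Psmd7, Psma5 and Psmc3) and 0 fell, and 31 of 38 fold changes lay above 0, with a median of 0.09. The number of proteasome genes that rose was 1 to 9 when 1 mouse was left out and 0, 0 and 0 in the 3 added fits, with 1 without pair-fed mouse 5 or vehicle mouse 3 and 9 without pair-fed mouse 3. Among 82 genes of the cytosolic ribosome 5 rose (6.10%, beside 3.2% of all tested genes) and 0 fell, with 3 to 7 when 1 mouse was left out and 2, 2 and 1 in the 3 added fits. Of these Rpl12 was called (log2 fold change 0.69), which has processed copies in the genome to which reads may be shared out. Rpl12 missed the threshold without vehicle mouse 5 (log2 fold change 0.59). Nedd4 missed the threshold without vehicle mice 2, 3 or 5 or pair-fed mice 2, 5 or 6 (log2 fold changes 0.14 to 0.17).

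Stress genes moved in both directions. In the list of glutathione and NRF2 genes 5 of 21 rose and 1 fell, with 3 to 6 that rose when 1 mouse was left out and 1, 2 and 1 in the 3 added fits. Nfe2l2, which encodes NRF2, the factor that drives antioxidant genes, had 554, 514, 483, 539 and 523 in vehicle mice and 631, 585, 655, 592 and 668 in pair-fed mice. For Nfe2l2 the log2 fold change was 0.26 (standard error 0.05, limma adjusted p = 0.0131). Its target Nqo1 had 241, 258, 225, 289 and 250.3 in vehicle mice and 335, 357, 322, 309 and 301 in pair-fed mice. For Nqo1 the log2 fold change was 0.36 (standard error 0.09, limma adjusted p = 0.0297). Neither gene overlapped between the groups. Gpx3, Gstm1 and Txnrd1 rose too, and Sod2, the mitochondrial superoxide dismutase, fell (log2 fold change -0.24, limma adjusted p = 0.075). Chac1, an ATF4 target whose product breaks down glutathione, had 653, 774, 1200.3, 1183 and 1173 in vehicle mice and 1753, 1682, 1169, 2202 and 1759 in pair-fed mice. For Chac1 the log2 fold change was 0.80 (standard error 0.20, limma adjusted p = 0.0363); pair-fed mouse 4 lay among the vehicle mice, and without pair-fed mouse 5 it no longer passed (log2 fold change 0.70, limma adjusted p = 0.102). Of the 21 ATF4 genes 2 rose, Chac1 and Vldlr, and Cebpg, a partner of ATF4, fell (log2 fold change -0.35, limma adjusted p = 0.00829). The ATF4 genes that rose numbered 0 to 2 when 1 mouse was left out and 0, 0 and 0 in the 3 added fits. In the endoplasmic reticulum, Herpud1 and Dnajb9 rose (log2 fold changes 0.26 and 0.26), and Hsp90b1 and Canx fell, of 21 tested; 2, 2 and 1 rose and 0, 1 and 0 fell in the 3 added fits. Of 27 heat shock genes 4 fell and 0 rose, and 23 fold changes lay below 0, with a median of -0.16. Hspa4l, an HSP110 co-chaperone, was called (174, 117, 115, 134 and 143 in vehicle mice and 106, 89.8, 61.1, 92.8 and 86.2 in pair-fed mice; log2 fold change -0.65, limma adjusted p = 0.0254), while Hspb1, Bag3 and Hspa8 had log2 fold changes of -0.30, -0.19 and -0.19. The heat shock genes that fell numbered 2 to 7 when 1 mouse was left out and 1, 1 and 1 in the 3 added fits, with 2 without pair-fed mouse 2, 5 or 6 or vehicle mouse 2 or 5 and 7 without pair-fed mouse 3. Hspa4l missed the threshold without vehicle mouse 1 or pair-fed mouse 4 (log2 fold changes -0.56 to -0.53). Sod2 missed the threshold without vehicle mice 1, 2, 3, 4 or 5 or pair-fed mice 2, 5 or 6 (log2 fold changes -0.25 to -0.18). Gpx3 missed the threshold without vehicle mice 3 or 5 or pair-fed mice 5 or 6 (log2 fold changes 0.32 to 0.38). Txnrd1 missed the threshold without vehicle mice 1, 2, 3 or 4 or pair-fed mice 2, 4, 5 or 6 (log2 fold changes 0.18 to 0.21). Vldlr missed the threshold without vehicle mice 1, 2 or 3 or pair-fed mice 2, 4, 5 or 6 (log2 fold changes 0.21 to 0.25). Canx missed the threshold without vehicle mice 2 or 5 or pair-fed mice 2 or 5 (log2 fold changes -0.22 to -0.20). Hsp90b1 missed the threshold without pair-fed mouse 2 (log2 fold change -0.14).

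Some genes for the use of carbohydrate were higher. In the list of glycogen genes 8 of 22 rose and 1 fell, with a median of 0.13, where 3.2% and 3.17% of all tested genes rose and fell. The rises were 0.15 to 0.26 on the log2 scale. Pygm (chromosome 19, 6384399 to 6398459), which encodes muscle glycogen phosphorylase, had 123679, 115204, 122740.5, 122057 and 119794 in vehicle mice and 156099.6, 129010.5, 133869, 150657 and 135889 in pair-fed mice. For Pygm the log2 fold change was 0.22 (standard error 0.05, limma adjusted p = 0.0289). Gyg, which encodes the primer protein glycogenin, had 4289, 4358, 4269, 4356 and 4361 in vehicle mice and 4729, 4846, 4567, 4871 and 5087 in pair-fed mice. For Gyg the log2 fold change was 0.15 (standard error 0.03, limma adjusted p = 0.0178). Both were without overlap. Epm2a, Ppp1r3a, Gaa, Gsk3b, Phka1 and Phkg1 made up the rest, of which Ppp1r3a passed in 8, Gsk3b in 5, Gaa and Phka1 in 4 and Phkg1 in 2 of the 10 fits that left out 1 mouse. Ppp1r3c, which encodes a subunit that brings protein phosphatase 1 to glycogen, moved the other way, at 6559, 4406, 3298, 3729.5 and 4063 in vehicle mice and 2241, 4356, 2557, 2843 and 1615 in pair-fed mice. For Ppp1r3c the log2 fold change was -0.73 (standard error 0.21, limma adjusted p = 0.0647); pair-fed mouse 3 lay within the vehicle values. It no longer passed without vehicle mouse 1, 2 or 5, or pair-fed mouse 2, 5 or 6 (log2 fold changes -0.77 to -0.56). Without pair-fed mouse 2, 5 or 6 the number of glycogen genes that rose was 5, 3 and 4, and without vehicle mouse 2 or 3 it was 3 and 4. In the 3 added fits it was 1, 1 and 0, with medians of 0.08, 0.11 and 0.09.

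Of 25 genes of glycolysis 5 rose and 1 fell (median 0.06); 3 to 6 rose when 1 mouse was left out and 3, 3 and 1 in the 3 added fits. Most encode enzymes at its controlled steps: Hk2, hexokinase II, had 4694, 4575, 5018, 4499.6 and 5108 in vehicle mice and 5394, 5902, 5395, 6430.5 and 5911 in pair-fed mice. For Hk2 the log2 fold change was 0.28 (standard error 0.06, limma adjusted p = 0.0193). Pfkm, the muscle phosphofructokinase, had 65081, 62937, 69594, 65719 and 63583 in vehicle mice and 77844, 69985, 74086, 77672 and 74345 in pair-fed mice. For Pfkm the log2 fold change was 0.19 (standard error 0.04, limma adjusted p = 0.0178). In both genes each pair-fed mouse exceeded each vehicle mouse. Pfkfb4, an enzyme that sets the level of fructose 2,6-bisphosphate, had 664, 690.3, 704, 674 and 798 in vehicle mice and 1102, 808, 902, 917 and 899 in pair-fed mice. For Pfkfb4 the log2 fold change was 0.39 (standard error 0.07, limma adjusted p = 0.00605), with no overlap. Its relative Pfkfb3 was called with a larger rise (2207, 2341, 4716, 2664 and 3371 in vehicle mice and 7528, 3273, 5594, 5412 and 4851 in pair-fed mice; log2 fold change 0.81, limma adjusted p = 0.0609), but overlapped. Pfkfb3 missed the threshold without vehicle mice 1, 2 or 4 or pair-fed mice 2, 5 or 6 (log2 fold changes 0.67 to 0.83). Slc2a1, which encodes the glucose transporter GLUT1, rose by 0.48 (limma adjusted p = 0.0448), and Slc16a1, which encodes the lactate transporter MCT1, fell by 0.43 on the log2 scale (limma adjusted p = 0.031). Slc2a1 missed the threshold without vehicle mouse 3 or pair-fed mice 5 or 6 (log2 fold changes 0.42 to 0.47). In the insulin receptor list Igf1r rose (0.35) and Pik3r1 and Inppl1 fell (-0.40 and -0.19) out of 24, where 3.2% of all genes rose and 3.17% fell; 0, 0 and 0 rose and 0, 0 and 0 fell in the 3 added fits. Of 12 growth hormone and STAT5 genes, Stat5a, whose exons overlap Stat3 on the opposite strand, had 261, 267, 265, 266 and 271 in vehicle mice and 159.8, 189, 235, 169 and 209 in pair-fed mice. For Stat5a the log2 fold change was -0.48 (standard error 0.10, limma adjusted p = 0.0165) with no overlap, and Igfbp5 fell by 0.33; 1, 2 and 0 of the 12 fell in the 3 added fits. Igf1, Cish and Socs2 did not pass (log2 fold changes -0.11, 0.61 and 0.85, limma adjusted p = 0.926, 0.634 and 0.231). Igf1r missed the threshold without vehicle mouse 5 or pair-fed mice 5 or 6 (log2 fold changes 0.28 to 0.32). Igfbp5 missed the threshold without vehicle mice 1, 2, 3 or 5 or pair-fed mice 3, 4, 5 or 6 (log2 fold changes -0.37 to -0.28).

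Genes of fatty acid use lay lower, with a wide spread among the pair-fed mice. All 28 tested genes of fatty acid uptake and oxidation had fold changes below 0, with a median of -0.30, and 6 fell at an adjusted p under 0.1: Decr1, Acadvl, Slc25a20, Fabp3, Acadl and Cd36. Fabp3 (chromosome 4, 130308595 to 130315463), which encodes the fatty acid carrier of muscle cytosol, had 13983, 15031, 10246, 12405 and 12549 in vehicle mice and 5630.0, 10862, 10452, 8447 and 6638 in pair-fed mice. For Fabp3 the log2 fold change was -0.65 (standard error 0.19, limma adjusted p = 0.0667). Pair-fed mice 2, 5 and 6 lay below all vehicle mice, and pair-fed mice 3 and 4 within their range. Cd36, which encodes a fatty acid transporter of the cell surface, had 6931, 8341, 7113, 7201 and 6634 in vehicle mice and 3978, 6559, 6285, 5418 and 4249.7 in pair-fed mice (log2 fold change -0.48, limma adjusted p = 0.0936). Plin5, which encodes a coat protein of lipid droplets at mitochondria, had 698, 851, 704, 667 and 705 in vehicle mice and 297, 636, 586, 431 and 367 in pair-fed mice. For Plin5 the log2 fold change was -0.70 (standard error 0.21, limma adjusted p = 0.0689). In Plin5 and Cd36 no pair-fed mouse reached the vehicle range, and mice 3 and 4 came nearest to it. Relative to the vehicle mean, the median of the 28 genes was -0.59, -0.06, -0.11, -0.26 and -0.48 on the log2 scale in pair-fed mice 2 to 6, and -0.11 to 0.17 in the vehicle mice. Of the 10 fits that left out 1 mouse, Decr1 and Acadvl passed in 7, Slc25a20 in 4 and Acadl in 2.

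How many of these genes passed turned on single mice. The count of the list fatty acid uptake and oxidation, lower, was 0 without pair-fed mouse 2, 0 without mouse 6, 2 without mouse 5, 14 without mouse 3 and 10 without mouse 4, and it was 2, 0, 4, 3 and 2 without vehicle mice 1 to 5. With the level of Myh2 as a covariate it was 0, and with the summed tendon markers 0, and the median moved to -0.12 and -0.14; without pair-fed mice 2 and 5 it was 0, with a median of -0.21. Myh2, the myosin of oxidative IIa fibres, had 22464, 29607, 36579, 23383 and 26006 in vehicle mice and 9789, 28999, 22917, 14475 and 19237 in pair-fed mice (log2 fold change -0.61, limma adjusted p = 0.216), so that the mice with low fatty acid genes, 2, 5 and 6, were also those with the fewest Myh2 counts; the part of fibre composition in these values was not tested beyond that fit. Fabp3 missed the threshold without vehicle mice 1, 2, 4 or 5 or pair-fed mice 2, 5 or 6 (log2 fold changes -0.66 to -0.51). Plin5 missed the threshold without vehicle mice 1, 2, 3 or 5 or pair-fed mice 2, 5 or 6 (log2 fold changes -0.71 to -0.55). Cd36 missed the threshold without vehicle mice 1, 2, 3, 4 or 5 or pair-fed mice 2, 5 or 6 (log2 fold changes -0.51 to -0.38). Ppara, which encodes the nuclear receptor that drives fatty acid oxidation genes, had 63.1, 68.7, 80.0, 62.7 and 89.1 in vehicle mice and 48.7, 64.6, 26.3, 33.2 and 36.3 in pair-fed mice. For Ppara the log2 fold change was -0.84 (standard error 0.22, limma adjusted p = 0.0409); it overlapped through pair-fed mouse 3, and missed the threshold without vehicle mouse 5 or pair-fed mouse 5 (log2 fold changes -0.76 and -0.77). Its targets Pdk4 and Angptl4 had log2 fold changes of -0.58 and -0.79 and did not pass (limma adjusted p = 0.213 and 0.197).

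Some respiratory chain genes fell, by small amounts. In complex I 8 of 47 fell, 0 rose, and 43 of 47 fold changes lay below 0 (median -0.12). In complexes III to V 7 of 42 fell, 0 rose, and all 42 lay below 0 (median -0.12). Of all tested genes 3.17% fell. Cycs, which encodes cytochrome c, had 2584, 2537, 2552, 2261 and 2593 in vehicle mice and 2140.3, 2231, 2153, 2162 and 1829.9 in pair-fed mice. For Cycs the log2 fold change was -0.25 (standard error 0.05, limma adjusted p = 0.0178). Cox7a1, a cytochrome oxidase subunit of muscle, had 3017, 3075, 3073, 2981 and 2896 in vehicle mice and 2526, 2755, 2543, 2571 and 2361 in pair-fed mice. For Cox7a1 the log2 fold change was -0.24 (standard error 0.05, limma adjusted p = 0.02). Neither overlapped between the groups. Ndufs4 of complex I fell by 0.20 on the log2 scale (limma adjusted p = 0.0189). Of 78 mitochondrial ribosomal genes 6 fell (7.69%, beside 3.17% of all tested genes) and 0 rose (median -0.08). Of 21 genes of the tricarboxylic acid cycle 1, Pcx, rose, with 20 of 21 fold changes below 0. The mitochondrial ribosomal genes that fell numbered 3 to 10 when 1 mouse was left out, with 3 without pair-fed mouse 6 and 10 without pair-fed mouse 3, and 0, 0 and 0 in the 3 added fits. Of the tricarboxylic acid genes 0 to 1 rose and 0 to 6 fell when 1 mouse was left out. In the 3 added fits 0, 1 and 0 of them rose and 0, 0 and 0 fell. When 1 mouse was left out, 2 to 14 genes of complex I and 3 to 14 of complexes III to V fell, with the fewest of both without pair-fed mouse 6 or vehicle mouse 3 and the most without pair-fed mouse 3; in the 3 added fits it was 0, 0 and 1 for complex I and 1, 0 and 1 for complexes III to V. Mb, which encodes myoglobin, was lowest in pair-fed mice 2, 5 and 6, at 43199, 49290.3, 46988, 43448 and 42537 in vehicle mice and 24353, 42294, 37332, 32023 and 26836 in pair-fed mice (log2 fold change -0.50, limma adjusted p = 0.0515), and passed in 5 of the 10 fits that left out 1 mouse, as Pcx did in 6. Nmrk2, which encodes a nicotinamide riboside kinase of muscle that makes NAD, was called in all 10 fits that left out 1 mouse, at 2507, 3558, 3534, 2703 and 4873 in vehicle mice and 1721, 2253, 2151, 1472 and 1543 in pair-fed mice. For Nmrk2 the log2 fold change was -0.89 (standard error 0.19, limma adjusted p = 0.0162), and the groups did not overlap. In the 3 added fits Nmrk2 was not called, with log2 fold changes of -0.72, -0.71 and -0.77 (limma adjusted p = 0.117, 0.104 and 0.148).

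Of 14 contractile genes of fast fibres 5 rose, 1, Myh1, fell, and 8 did not pass, among them Myh4; the median was 0.17. The number that rose was 2 without pair-fed mouse 2, 5 or 6 or vehicle mouse 2 or 5, 3 without vehicle mouse 3, and 2, 2 and 1 in the 3 added fits, with medians of 0.07, 0.10 and 0.06. Actn3, which encodes the α-actinin of fast fibres, had 132968, 121912, 127688, 130003 and 118039 in vehicle mice and 179559, 144523, 142992, 173243 and 154856 in pair-fed mice. For Actn3 the log2 fold change was 0.33 (standard error 0.07, limma adjusted p = 0.0167). Mylk2, the kinase of the fast myosin light chain, had 20952, 20498, 19282, 20607 and 18557 in vehicle mice and 27995, 22445, 24079, 27007 and 28651 in pair-fed mice. For Mylk2 the log2 fold change was 0.38 (standard error 0.07, limma adjusted p = 0.00659). The groups did not overlap in either gene. Pvalb, Myoz1 and Mybpc2 rose by 0.15 to 0.27, and each missed the threshold without pair-fed mouse 2, 5 or 6. Myh1 (chromosome 11, 67200052 to 67224575), the IIx myosin, had 174894, 166269, 188359, 166146 and 131259 in vehicle mice and 77806, 139363, 110927, 99493 and 95028 in pair-fed mice. For Myh1 the log2 fold change was -0.68 (standard error 0.14, limma adjusted p = 0.0123); pair-fed mouse 3 exceeded the lowest vehicle mouse, and without pair-fed mouse 2 the log2 fold change was -0.58. An antisense gene, Myhas, overlaps its exons. Myh4 had 703813 to 924279 in vehicle and 801454 to 1022206 in pair-fed mice (log2 fold change 0.18, limma adjusted p = 0.272). Of 14 slow-fibre genes 0 passed; Myh7 ranged from 42.1 to 108 in vehicle and 33.1 to 746 in pair-fed mice, with the high values in pair-fed mice 3 and 6. Casq2, which encodes the calsequestrin of slow fibres, had 868, 855, 1049.9, 727 and 795 in vehicle mice and 300.3, 689, 706, 568 and 320.0 in pair-fed mice. For Casq2 the log2 fold change was -0.82 (standard error 0.24, limma adjusted p = 0.0643), without overlap. Casq2 missed the threshold without vehicle mice 1, 2, 3 or 5 or pair-fed mice 2 or 6 (log2 fold changes -0.84 to -0.64).

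**Figure D3:**
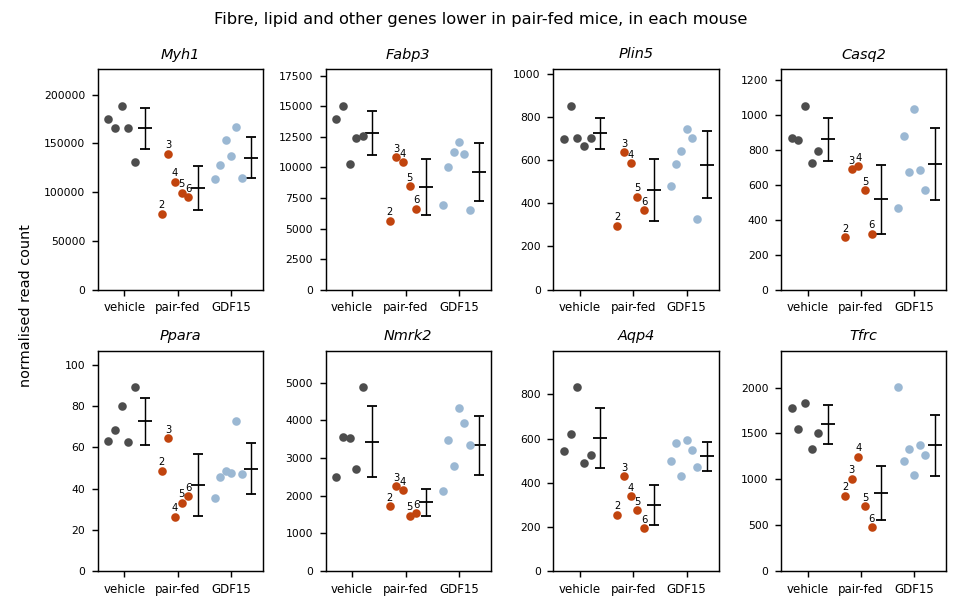
Normalised read counts (vertical axes, from 0) of 8 called lower genes in each vehicle (grey), pair-fed (red, with mouse numbers) and GDF15-treated mouse (blue); bars give the mean and SD (n = 5, 5 and 6). Pair-fed mice 3 and 4 lie nearest to the vehicle mice in Fabp3, Plin5 and Casq2, while in Nmrk2, Aqp4 and Tfrc all pair-fed mice lie below all vehicle mice.

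**Figure D4:**
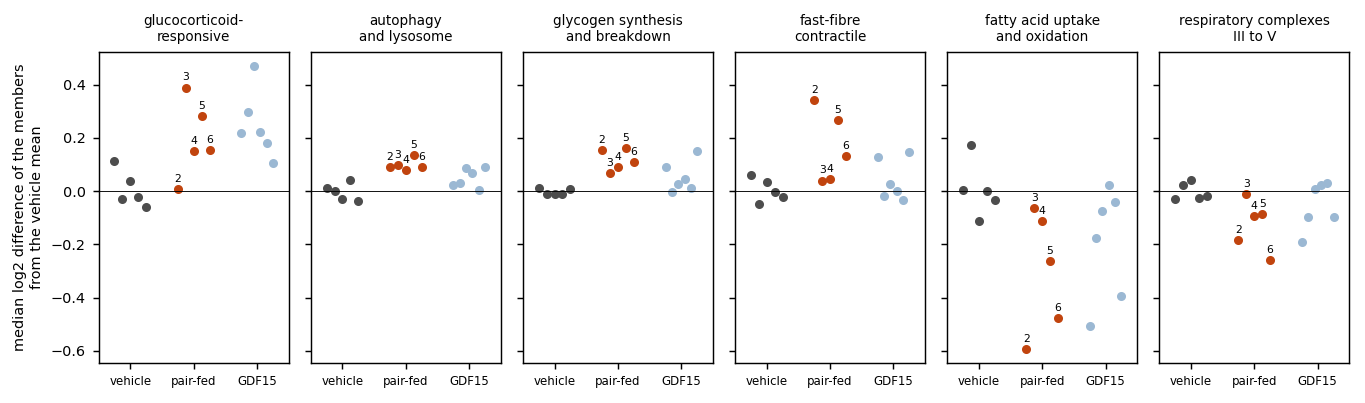
Median over the tested members of 6 gene lists of the log2 difference from the vehicle mean (vertical axis) in each vehicle (grey), pair-fed (red, with mouse numbers) and GDF15-treated mouse (blue). The fatty acid list ranges from -0.59 to -0.06 among pair-fed mice, with mice 2 and 6 lowest, and the autophagy list from 0.08 to 0.14.

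Among 5 genes of muscle energy use that were also chosen for qPCR, Atp2a1, which encodes the calcium pump SERCA1 of fast fibres, rose slightly: it had 595691, 580276, 616451, 598601 and 566293 in vehicle mice and 718748, 648120.0, 645171, 695881 and 688399 in pair-fed mice. For Atp2a1 the log2 fold change was 0.20 (standard error 0.05, limma adjusted p = 0.0402), with no overlap. Part of an exon is shared with Rabep2, which is read from the other strand, and without vehicle mouse 5 it did not pass (log2 fold change 0.18, limma adjusted p = 0.104). Nor did it pass with the tendon markers as a covariate (0.18, limma adjusted p = 0.104), without pair-fed mice 2 and 5 (0.16, limma adjusted p = 0.205), with the replicate block (0.20, limma adjusted p = 0.116) or with vehicle and pair-fed mice alone (0.20, limma adjusted p = 0.102). Under quantile normalization the log2 fold change of Atp2a1 was 0. That method gives the same value to a gene of equal rank in every library, so that it did not test the rise. Ppargc1a, which encodes the coactivator PGC-1α, had 457, 475, 473, 394 and 444 in vehicle mice and 340.2, 383, 373, 446 and 398 in pair-fed mice (log2 fold change -0.21, interval -0.43 to 0.01, limma adjusted p = 0.279). Ucp3, which encodes a mitochondrial uncoupling protein, had a log2 fold change of -0.14 (-0.51 to 0.22, limma adjusted p = 0.716). For Sln and Pln, which encode the SERCA inhibitors sarcolipin and phospholamban, it was -0.39 (-1.23 to 0.44, limma adjusted p = 0.651) and 0.05 (-0.47 to 0.58, limma adjusted p = 0.941), so that these 4 did not pass. Of 24 genes of calcium handling, Cacng1, a subunit of the voltage sensor, and Atp2a1 rose and Casq2 fell; 1, 0 and 0 rose and 0, 0 and 0 fell in the 3 added fits, where Cacng1 passed in none (limma adjusted p = 0.205, 0.174 and 0.276). In the list of the β-adrenergic, cAMP and PKA genes 2 of 31 fell, the phosphodiesterase gene Pde4a (log2 fold change -0.35, limma adjusted p = 0.0131) and the adenylyl cyclase gene Adcy9 (log2 fold change -0.39, limma adjusted p = 0.0249), and 0 rose, where 3.17% of all genes fell. In the 3 added fits 1, 1 and 0 of this list fell, and Adcy9 passed in none of them (limma adjusted p = 0.121, 0.152 and 0.169).

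Among single genes of the fibre membrane, iron uptake and vessels, Aqp4, Dtnb, Tfrc, Kdr and Angpt1 fell. Aqp4 (chromosome 18, 15389496 to 15410982), which encodes the water channel of fast fibres held by the dystrophin complex, had 544, 619, 832, 488 and 528 in vehicle mice and 255, 429, 339, 275 and 193 in pair-fed mice. For Aqp4 the log2 fold change was -1.04 (standard error 0.17, limma adjusted p = 0.00353). Tfrc, which encodes the transferrin receptor that takes up iron, had 1779, 1546, 1833, 1329 and 1499.9 in vehicle mice and 819, 1006, 1245, 705 and 477 in pair-fed mice. For Tfrc the log2 fold change was -0.97 (standard error 0.20, limma adjusted p = 0.0146). In both genes each pair-fed mouse lay below each vehicle mouse, and both were called in all 10 fits that left out 1 mouse. Within the dystrophin list of 16, 2 fell and 1 rose: Dtnb was called like Aqp4 but overlapped through vehicle mouse 3 (31.1, 27.6, 7.47, 28.9 and 25.3 in vehicle mice and 5.92, 7.35, 10.9, 9.32 and 13.2 in pair-fed mice; log2 fold change -1.18, limma adjusted p = 0.0659), and Sgca rose; 1, 1 and 1 of the list fell in the 3 added fits. Dtnb missed the threshold without vehicle mice 1, 2, 4 or 5 or pair-fed mice 2 or 5 (log2 fold changes -1.20 to -1.05). Kdr, which encodes the main VEGF receptor of endothelial cells, had 1102, 1275, 1266, 1268 and 1237 in vehicle mice and 796, 867, 1065, 807 and 833 in pair-fed mice. For Kdr the log2 fold change was -0.50 (standard error 0.09, limma adjusted p = 0.00473). Angpt1, the ligand of the receptor TIE2, had 418, 385, 426, 340.2 and 371 in vehicle mice and 251, 260.0, 332, 271 and 214 in pair-fed mice. For Angpt1 the log2 fold change was -0.55 (standard error 0.10, limma adjusted p = 0.00793). The groups did not overlap in either gene, both had an adjusted p under 0.1 in all 10 fits that left out 1 mouse, and both fold changes were under the size needed for a call. Of the 14 genes of hypoxia and angiogenesis these 2 fell and 0 rose, and 2, 2 and 2 fell in the 3 added fits. The endothelial markers Pecam1, Cdh5, Tek, Cldn5, Emcn and Egfl7 did not pass (0 of 6), and 5 of the 6 had fold changes below 0. Of the collagens, Col4a1 and Col4a2, which form the basement membrane and share a divergent promoter, and Col5a3 fell, 3 of 32, and 0 rose (median -0.19). Col4a2 missed the threshold without vehicle mouse 2 or pair-fed mice 2 or 5 (log2 fold changes -0.38 to -0.36). Col5a3 missed the threshold without vehicle mice 1, 2, 4 or 5 or pair-fed mice 2, 3 or 5 (log2 fold changes -0.47 to -0.40). The collagens that fell numbered 1 to 4 when 1 mouse was left out and 0, 2 and 0 in the 3 added fits. Tead4, which encodes a transcription factor of the Hippo pathway, had 105, 176, 102, 103 and 143 in vehicle mice and 51.6, 61.2, 89.0, 49.6 and 60.6 in pair-fed mice. For Tead4 the log2 fold change was -0.9959 (standard error 0.19, limma adjusted p = 0.0103), with no overlap.

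The largest rises among called genes were in Chad, Ccn5 and Angptl7, which encode secreted proteins of the matrix, and were uneven among the mice. Chad, which encodes the collagen-binding protein chondroadherin, had 17.5, 26.2, 15.8, 25.3 and 15.14 in vehicle mice and 147, 51.2, 61.3, 45.6 and 220.4 in pair-fed mice. For Chad the log2 fold change was 2.09 (standard error 0.58, limma adjusted p = 0.0546). Angptl7, a secreted angiopoietin-like protein, had 18.4, 34.7, 21.0, 45.0 and 16.8 in vehicle mice and 176, 81.7, 76.3, 38.9 and 176 in pair-fed mice. For Angptl7 the log2 fold change was 1.87 (standard error 0.48, limma adjusted p = 0.0417). Ccn5, a secreted matricellular protein, had 6.31, 5.05, 2.00, 5.23 and 4.04 in vehicle mice and 20.3, 10.6, 23.0, 10.8 and 48.7 in pair-fed mice. For Ccn5 the log2 fold change was 1.94 (standard error 0.55, limma adjusted p = 0.06). Pair-fed mice 2 and 6 were high in Chad and Angptl7 and mouse 6 in Ccn5, and the groups overlapped in Angptl7. The summed tendon markers (Tnmd, Scx, Fmod, Comp and Kera) were 558, 700.1, 477, 612 and 598 in vehicle mice and 2091, 752, 555, 745 and 1946 in pair-fed mice, high in the same 2 mice, while 0 of the 5 passed the test, 4 of 5 had fold changes above 0, and Scx, which defines the lineage, had 27.7 to 36.0 in vehicle and 22.4 to 38.4 in pair-fed mice. With these markers as a covariate the log2 fold changes of Chad, Angptl7 and Ccn5 were 0.94, 0.95 and 1.34 and none of the 3 passed. Without pair-fed mouse 2 or 6, or without vehicle mouse 5, none of the 3 passed either (log2 fold changes 1.62 to 2.00); Chad and Ccn5 were also lost without vehicle mouse 3 (2.02 and 1.74). Dkk3, a secreted protein of the Dickkopf family, had 615, 587, 409.9, 489 and 545 in vehicle mice and 916, 732, 875, 904 and 2158 in pair-fed mice. For Dkk3 the log2 fold change was 0.97 (standard error 0.26, limma adjusted p = 0.0448), without overlap, and passed in each fit that left out 1 mouse but that without vehicle mouse 3 (log2 fold change 0.88, limma adjusted p = 0.107). It did not pass with the tendon markers (log2 fold change 0.60, limma adjusted p = 0.247) or Myh2 (0.9997, limma adjusted p = 0.137) as a covariate, nor without pair-fed mice 2 and 5 (1.09, limma adjusted p = 0.148). Aebp1, a matrix-bound carboxypeptidase-like protein, had 1947 to 2191 in vehicle and 2633 to 3479.9 in pair-fed mice and a log2 fold change just past the threshold (0.60, limma adjusted p = 0.00473). Aebp1 missed the threshold without vehicle mice 1, 3 or 5 or pair-fed mice 2, 5 or 6 (log2 fold changes 0.56 to 0.60).

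Several genes outside the clock list had adjusted p-values in the range of the clock genes, and whether they vary with the hour was not tested. Usp2, which encodes a deubiquitinase, had 2423, 2029.6, 2342, 2153 and 2272 in vehicle mice and 3635, 3483, 3294, 3632 and 3743 in pair-fed mice. For Usp2 the log2 fold change was 0.67 (standard error 0.07, limma adjusted p = 6.31e-05). Auts2, whose product joins a Polycomb complex, had 416, 484, 351, 595 and 410.1 in vehicle mice and 221, 214, 221, 180.3 and 185 in pair-fed mice. For Auts2 the log2 fold change was -1.12 (standard error 0.13, limma adjusted p = 0.000132). Tob2, which encodes an antiproliferative protein that acts on mRNA decay, had 818, 736, 464, 646 and 620.4 in vehicle mice and 1012, 1401, 1218, 1418 and 868 in pair-fed mice. For Tob2 the log2 fold change was 0.85 (standard error 0.16, limma adjusted p = 0.01). Usp2, Auts2 and Tob2 did not overlap between the groups and were called under each of the 25 alternatives, as were Aqp4, Dbp, Glul, Per1 and Per2. Slc25a25, which encodes a calcium-regulated carrier of ATP-Mg into mitochondria, had 218, 275, 131, 285 and 146 in vehicle mice and 415, 657, 462, 811 and 372 in pair-fed mice. For Slc25a25 the log2 fold change was 1.37 (standard error 0.31, limma adjusted p = 0.0235), also without overlap. Of metabolic enzymes, Mthfd1l, of mitochondrial one-carbon metabolism, rose from a low count (3.13, 8.35, 3.02, 6.67 and 4.65 in vehicle mice and 16.5, 17.5, 12.99, 17.2 and 16.3 in pair-fed mice; log2 fold change 1.54, limma adjusted p = 0.00731). Mid1ip1, which encodes an activator of acetyl-CoA carboxylase, had 264 to 362 in vehicle and 421 to 636 in pair-fed mice (log2 fold change 0.67, limma adjusted p = 0.0094), and Acat2, a cytosolic acetyl-CoA acetyltransferase, 33.4 to 54.5 in vehicle and 51.1 to 80.5 in pair-fed mice (log2 fold change 0.70, limma adjusted p = 0.0236). Pnpla3, which encodes a protein of lipid droplets, had 43.6, 36.5, 48.7, 38.7 and 31.0 in vehicle mice and 18.0, 17.0, 19.2, 19.5 and 12.7 in pair-fed mice. For Pnpla3 the log2 fold change was -1.15 (standard error 0.19, limma adjusted p = 0.00298), with each pair-fed mouse below each vehicle mouse. Lrrc61 rose (log2 fold change 0.71), and its exons overlap Rarres2 on the opposite strand. Lower genes of the same rank were Wsb1, a substrate receptor of a ubiquitin ligase (-0.69), Efr3b, a membrane anchor of phosphatidylinositol 4-kinase (-0.82), Slc25a36, a mitochondrial nucleotide carrier (-0.63), Arhgap24 (-0.63), Rassf9 (-0.75), Hmcn1, a hemicentin of the matrix (-1.25), and Slc22a23 (-0.62); their limma adjusted p-values were 0.00473 to 0.0161. Mid1ip1 missed the threshold without pair-fed mouse 3 (log2 fold change 0.59). Wsb1 missed the threshold without pair-fed mouse 5 (log2 fold change -0.59). Slc25a36 missed the threshold without vehicle mouse 1 or pair-fed mice 2 or 6 (log2 fold changes -0.60 to -0.55). Arhgap24 missed the threshold without pair-fed mice 2 or 5 (log2 fold changes -0.60 to -0.54). Slc22a23 missed the threshold without vehicle mice 2 or 3 or pair-fed mice 5 or 6 (log2 fold changes -0.59 to -0.55).

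Of the genes with the largest changes, Syt12 (log2 fold change -1.66), a synaptotagmin, Cnn1 (-1.47), the calponin of smooth muscle, and Acot4 (-1.23), a peroxisomal acyl-CoA thioesterase, had mean counts under 30 in both groups. The means were 21.8 ± 15.8 in vehicle and 5.55 ± 2.76 in pair-fed mice (SD, n = 5), 27.2 ± 6.30 in vehicle and 9.91 ± 5.16 in pair-fed mice, and 16.7 ± 5.71 in vehicle and 7.32 ± 4.61 in pair-fed mice. Amd2 rose (log2 fold change 1.32, limma adjusted p = 0.0614), but it is a near-identical copy of Amd1, so that reads may be split between the copies. Vmn2r97, a vomeronasal receptor gene of a large family, is uncertain for the same reason. Syt12 missed the threshold without vehicle mouse 5 or pair-fed mice 5 or 6 (log2 fold changes -1.61 to -1.32). Cnn1 missed the threshold without vehicle mice 1 or 2 or pair-fed mice 5 or 6 (log2 fold changes -1.41 to -1.35). Acot4 missed the threshold without vehicle mice 1, 2, 4 or 5 or pair-fed mice 2, 5 or 6 (log2 fold changes -1.26 to -0.999). Amd2 missed the threshold without vehicle mice 2, 3 or 4 or pair-fed mice 4 or 5 (log2 fold changes 1.15 to 1.31). The 5 lists that follow had no member at an adjusted p under 0.1 in either direction or a single one: cholesterol synthesis (0 of 24), interferon response and MHC class I (0 of 26), acetylcholine receptor and denervation genes (0 of 16), slow-fibre genes (0 of 14) and, with Jun higher, immediate early genes (1 of 24).

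Lists not yet described held few genes at an adjusted p under 0.1. Around mTORC1, the kinase complex that drives protein synthesis, the counts were 3 higher and 1 lower of 26, median 0.08: Fnip1, Eif4ebp1 and Flcn rose and Castor2 fell. For transport of amino acids the counts were 1 higher and 2 lower of 15, median 0.03: Slc7a2, a carrier of arginine and lysine, rose (0.50, limma adjusted p = 0.0157), and Slc38a2 and Slc38a4, sodium-coupled carriers of small neutral amino acids, fell (-0.53 and -0.46, limma adjusted p = 0.016 and 0.0167). In myostatin and activin signalling (1 higher and 2 lower of 25, median -0.02), the receptor gene Acvr1b rose, and Smad3 and Bmpr1a fell. For polyamines (2 higher and 1 lower of 12, median 0.15) Amd2 and Oaz1 rose and Azin1 fell, and for breakdown of branched-chain amino acids (1 higher and 0 lower of 19, median 0.06) Aldh6a1 rose. Of these genes Flcn, Amd2, Oaz1, Azin1 and Aldh6a1 passed only in part of the 10 fits that left out 1 mouse, and in the 3 added fits each of these lists held at most 2 genes that rose and 2 that fell.

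In lipid metabolism the PPAR targets (1 higher and 3 lower of 18, median -0.19), the genes of lipid droplets and lipolysis (0 higher and 2 lower of 19, median -0.14) and those of fatty acid synthesis (0 higher and 2 lower of 17, median -0.06) were lower in most members that passed; Mlxip, a glucose-sensing factor, fell by 0.38 on the log2 scale (limma adjusted p = 0.00284). Of the PPAR targets 0 to 5 fell when 1 mouse was left out, with 0 without pair-fed mouse 2, 5 or 6 or vehicle mouse 1, 2 or 5, and 0, 0 and 0 in the 3 added fits; of the lipid droplet genes 1 to 5 fell when 1 mouse was left out. For pyruvate entry (0 higher and 2 lower of 13, median -0.12) Pdpr and Mpc2 fell. Among mitochondrial biogenesis factors (2 higher and 2 lower of 21, median -0.10) Nrip1, a corepressor of oxidative genes, and Pprc1 rose, and Ppara and Esrrb fell. For uncoupling, creatine and purine nucleotides (2 higher and 1 lower of 16, median 0.07) Gpd2 and Ckm rose and Ckmt2, the mitochondrial creatine kinase, fell. The remaining counts were 0 higher and 2 lower of 15, median 0.04 for myogenic regulators, 1 higher and 1 lower of 11, median -0.07 for thyroid hormone response, 0 higher and 1 lower of 15, median -0.04 for NAD metabolism, and 0 higher and 1 lower of 21, median 0.01 for extracellular matrix outside the collagens. Of the myogenic regulators 0 to 3 fell when 1 mouse was left out, with 0 without pair-fed mouse 2, 5 or 6 or vehicle mouse 1, 3 or 5, and 1, 0 and 0 in the 3 added fits. In those fits at most 1 gene rose and 1 fell in each of the other lists just given. Pdpr missed the threshold without pair-fed mice 5 or 6 (log2 fold change -0.26). Ckmt2 missed the threshold without vehicle mice 2, 3 or 5 or pair-fed mice 2 or 6 (log2 fold changes -0.39 to -0.33). Of 10 fits that left out 1 mouse, Ckm passed in 3, Esrrb in 2 and Pprc1 in 2.

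**Figure D5:**
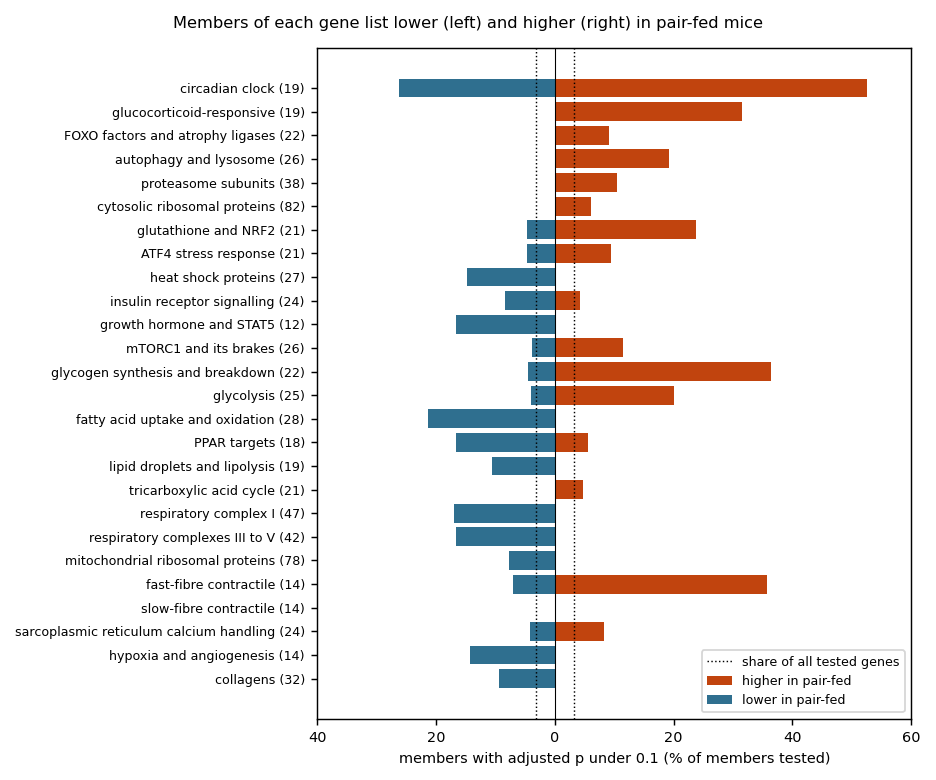
Share of the tested members of each of 26 gene lists (number tested in parentheses) that were lower (blue, to the left) or higher (red, to the right) in pair-fed mice at an adjusted p under 0.1, in percent. Dotted lines mark the share of all 11841 tested genes, 3.17% lower and 3.2% higher; the clock, glycogen, fast-fibre and glucocorticoid lists reach furthest to the right.

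Set beside the 6 GDF15-treated mice, some of these genes differed and others did not pass the test. Between pair-fed and GDF15-treated mice 257 of the 11841 genes (2.17%) had an adjusted p under 0.1, and 13 of 30 called genes, the 15 higher and 15 lower ones with the smallest adjusted p against vehicle, were among them. Both comparisons use the same pair-fed mice. The 30 were chosen by values in those mice, which can by itself raise their share, so that it cannot be set against the 2.17%. Of the 30, 0 passed without pair-fed mice 2 and 5 together, and 4 to 14 when 1 mouse was left out. Ppp1r3c, Pfkfb3, Chac1 and Aqp4 had log2 fold changes of -1.23, 1.38, 1.41 and -0.84, pair-fed minus GDF15 (limma adjusted p = 0.00808, 0.00718, 0.00243 and 0.0276). The autophagy genes Gabarapl1, Sqstm1 and Ulk1 were higher in pair-fed mice (0.38, 0.26 and 0.44, limma adjusted p = 0.00808, 0.0354 and 0.0107), and so was Klf9 (0.16, limma adjusted p = 0.0354). Of the clock, Per3 and Cry2 were higher and Arntl was lower (0.33, 0.31 and -0.50, limma adjusted p = 0.0297, 0.0821 and 0.0276). Glul, Usp2, Tob2, Slc25a25 and Dbp did not pass, with log2 differences of -0.02, 0.06, -0.11, 0.17 and 0.23. Fkbp5, which did not pass against vehicle, was lower in pair-fed than in GDF15-treated mice (-0.94, limma adjusted p = 0.0155).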

How the data were processed

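RNA from the tibialis anterior was sequenced as paired-end reads from strand-specific libraries. The submitters' processing notes name Trim Galore, Salmon, DESeq2 and mm10, and the deposited table holds DESeq2 variance-stabilised log2 values of 14538 genes in 16 libraries; versions are not given in the sources used here. These log2 values, deposited by the authors, were transformed back to normalised read counts. Genes with a mean of at least 10 (11841) were fitted as log2(count + 1) in limma 3.58.1 (R 4.3.3) with vehicle, pair-fed and GDF15 groups and an eBayes trend. Fold changes are on this log2(count + 1) scale, which understates those of low genes. Called genes had to pass a Benjamini-Hochberg adjusted p of 0.1 and to change by over 0.6 (log2). Depth was inferred from steps of the low counts.

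Coordinates are those of GENCODE on GRCm38. Named genes were the 15 higher and 15 lower called genes with the smallest adjusted p, the 5 largest changes in each direction, called members of the 46 gene lists (or up to 4 members of smallest p where under 2 were called), and 5 genes with qPCR; other members named to describe a list were chosen after their values were seen. The members and lists were chosen with earlier results of these data known. On simulated data with 200 of 11841 genes changed, the fit recovered 178 (89%), called 5 unchanged genes, and called 0 when none was changed. These counts are not split by the size of the change or by variation shared among genes, such as that with Myh2. They therefore cannot be carried over to the real genes at the adjusted p alone, whose median size of change was 0.30 (log2). Nor do they give the share of false calls among the called genes. Each library is 1 mouse. Alternatives changed the pseudocount, minimum, scaling, weights, covariates, groups in the fit, replicate block and mice left out. Python 3.11.15, pandas 2.3.3, numpy 2.4.6, scipy 1.17.1 and matplotlib 3.10.9 were used.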

Additional observations from a re-analysis of the deposited data

Results flagged for a closer look

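Of 412 groups of 5 mice in the genes examined, 24 held 1 mouse that lay apart from the others, its gap to the nearest mouse being over 0.71 of the range of the group. Chance gives about 1 in 20 groups, here 20.6. Among vehicle mice the normalised read counts that lay apart were those of Atf5 in mouse 1 (805), Canx in mouse 4 (1152), Cycs in mouse 4 (2261), Dlst in mouse 2 (5698), Dtnb in mouse 3 (7.47), Fosl2 in mouse 4 (195), Kdr in mouse 1 (1102), Lrp4 in mouse 1 (136), Mvd in mouse 1 (67.1), Myoz2 in mouse 3 (685), Pdpr in mouse 1 (845), Plin5 in mouse 2 (851), Psmd7 in mouse 3 (1785) and Slc16a1 in mouse 3 (916). Among pair-fed mice they were those of Atp5k in mouse 5 (2118), Cycs in mouse 6 (1829.9), Fbn1 in mouse 6 (364), Hibch in mouse 2 (412), Kdr in mouse 4 (1065), Mthfd1l in mouse 4 (13), Npas2 in mouse 3 (13.6), Pink1 in mouse 5 (16988), Sirt3 in mouse 3 (334) and Srm in mouse 5 (104). The counts of Npas2 in pair-fed mouse 3 and of Dtnb in vehicle mouse 3 are among the values through which the groups overlapped in these 2 called genes.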

How the results depend on the processing

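Leaving out 1 mouse gave 60 to 157 called genes, 24 to 52 higher and 31 to 105 lower, and 406 to 1048 at the adjusted p alone. The cause of these ranges was not tested. On the deposited log2-scale values, which compress the changes of low counts, 17 genes were called, 10 higher and 7 lower. An adjusted p under 0.05 left 56 genes (22 higher, 34 lower), and a log2 fold change above 1 left 25 (13 and 12). Alternatives added after the data were seen gave 33 called genes with Myh2 as a covariate (18 and 15), 32 with the summed tendon markers (16 and 16) and 26 without pair-fed mice 2 and 5 (17 and 9), and 190, 228 and 125 genes at the adjusted p alone. The replicate block, with mouse numbers as a factor, gave 81 called genes, 63 of them shared with the 97, and 520 at the adjusted p alone. Deviations from the group mean in same-numbered vehicle and pair-fed mice correlated at -0.099 to -0.026. Differently numbered mice and GDF15-treated mice were not compared in this way, so that a pairing by number was not tested. Pseudocounts of 0.5 and 5, a minimum mean of 50 or none, fitting 2 groups, no trend, library weights, quantile normalization, median centring and a depth covariate gave 77 to 108 called genes. Of the 15 higher and 15 lower called genes with the smallest adjusted p, 13 also differed from GDF15, with 4 to 14 when 1 mouse was left out, 8 with no trend, 6 with a depth covariate, 6 with Myh2 as a covariate and 0 without pair-fed mice 2 and 5. These genes were chosen through the same pair-fed mice. The log2 fold change of Pln, which did not pass, ranged from -0.081 to 0.29 when 1 mouse was left out and changed sign without vehicle mouse 3 or 4 or pair-fed mouse 2, 4 or 5 (-0.0075, -0.036, -0.014, -0.081 and -0.0080), with Myh2 as a covariate (-0.014) and without pair-fed mice 2 and 5 (-0.11). Ucp3 changed sign with both covariates (0.0032 and 0.0091) and Myoz2 with Myh2 (0.085). Of other named genes that did not pass, Fbxo32, Trim63, Foxo1, Igf1, Scx and Kera had log2 fold changes of either sign when 1 mouse was left out.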
